A study of Mus musculus with 6 samples.

Results

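Transcripts of 8 genes that decide whether a cell enters mitochondrial apoptosis were followed in isolated mouse pancreatic islets: the survival genes Bcl2, Bcl2l1 and Mcl1, the death genes Bak1, Bad, Bid and Bcl2l11, and the caspase gene Casp9. They were chosen by symbol, and all 8 were found among the 24421 genes of the count table. Executioner caspases are not among them: Casp9 encodes an initiator caspase, and executioners such as Casp6 were counted with the rest of the pathway. Bax and Bbc3, other members of the BCL2 family, were likewise outside the 8.

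The islets came from mice on the C57BL/6J background, of which 3 libraries carry the label control and 3 a genotype meant to delete Dhps in β cells. Deoxyhypusine synthase, the product of Dhps, begins the conversion of a lysine of the translation factor eIF5A to hypusine. That genotype was given as C57.DhpsloxP.MIP1-CreERT, that is, a floxed Dhps allele with a tamoxifen-inducible Cre recombinase under the mouse insulin promoter, so that only insulin-expressing cells of the islet are targeted. The labels did not say whether controls carried Cre or received tamoxifen, gave no age, did not spell out the prefix HF of the sample names, and did not state that each library was a separate animal. The p-values therefore reflect the scatter among these 6 libraries, which may be technical.

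Proteins of the BCL2 family control the outer membrane of mitochondria. BCL2, BCL-XL (from Bcl2l1) and MCL1 hold the pore-forming proteins BAK (from Bak1) and BAX in check, and the BH3-only proteins BAD, BID and BIM (from Bcl2l11) relieve that restraint or activate the pore formers directly. Once the membrane is open, cytochrome c leaves the mitochondria and assembles APAF1 into the apoptosome, which activates caspase-9, and caspase-9 cleaves the executioner caspases. Much of this control acts on the proteins, through phosphorylation, cleavage and turnover, and transcript counts do not read it. In β cells the pathway is studied for its part in the loss of insulin-producing cells in diabetes.

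Each library held 21027737 to 23249895 counts assigned to genes. Dhps, the targeted gene, was not lower in the knockout-labelled libraries beyond the spread: 12.6 ± 0.704 CPM (counts scaled to library size) in controls and 11.96 ± 0.689 in knockout-labelled libraries (SD, n = 3 each, edgeR adjusted p = 0.742). Counts over the whole gene do not separate β cells from other islet cells or a transcript that lacks deleted exons, so "knockout-labelled" is used throughout. The 12 β cell markers, insulin genes included, summed to between 367506 and 496319 CPM in the 6 libraries. In bulk islets, fewer cells of a type and less RNA per cell cannot be told apart.

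The 8 genes spanned a wide range of levels. TPM values, which divide each count by the summed exon length of its gene, were used to compare levels between genes. Mcl1 was the most abundant at 38.03 TPM (mean of 6 libraries, range 27.6 to 45.6), and 5.02% of the genes in the table had a higher mean TPM. Bcl2l1 followed at 19.5 TPM (16.5 to 22.7) and Bad, whose product binds and neutralises BCL-XL and BCL2, at 10.6 TPM (8.24 to 13.97). These 3 ranges did not overlap one another or those below, and the order Mcl1, Bcl2l1, Bad held in 6 of 6 libraries. Casp9 (2.27 TPM, 1.82 to 2.91), Bid (1.82 TPM, 1.33 to 2.73) and Bcl2l11 (1.75 TPM, 1.47 to 2.15) formed a middle tier whose ranges overlapped. Casp9 was above Bid in 4 of 6 libraries, and Bid above Bcl2l11 in 4 of 6. Bcl2 (0.604 TPM, 0.423 to 0.775) and Bak1 (0.485 TPM, 0.236 to 0.647) were lowest, with ranges that overlapped each other and lay below all the others.

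**Figure D1:**
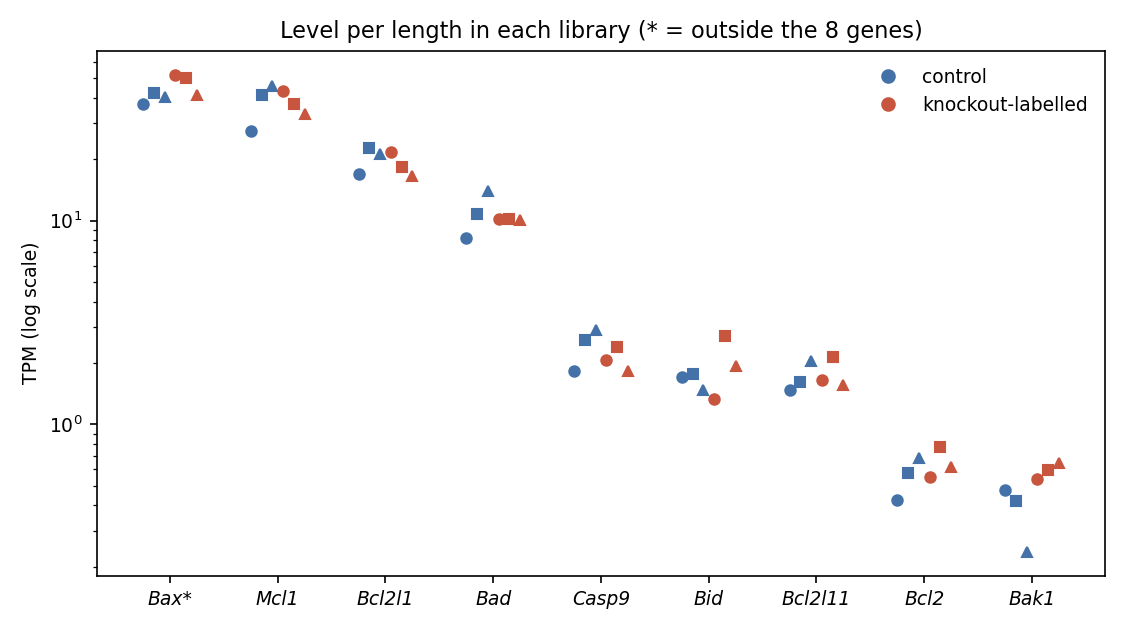
Level per length (TPM, logarithmic axis) of the 8 genes and, marked with an asterisk, Bax, in each of the 6 libraries (circle, square and triangle for replicates 1, 2 and 3, with colour for the group). Mcl1 lies between 27.6 and 45.6 TPM and Bcl2, which gave the family its name, between 0.423 and 0.775 TPM.

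Among the survival genes, Mcl1 supplied 64.3% ± 3.01 of their summed TPM in controls and 66.1% ± 0.106 in knockout-labelled libraries, and Bcl2l1 34.8% ± 3.05 and 32.7% ± 0.365 (SD, n = 3 each). Bcl2 supplied 0.845% to 1.37% in the 6 libraries, so that the level per length of Bcl2l1 was 23.6 to 39.9 times that of Bcl2. Among the death genes of the list, Bad supplied 65.2% to 78.8% and Bak1 1.33% to 4.55%. The pore formers were as uneven: Bax stood at 37.3 to 52.1 TPM, which was 64.2 to 172 times the level of Bak1 in the same library. The summed TPM of the 3 survival genes over that of the 4 death genes was 4.01 ± 0.378 in controls. In knockout-labelled libraries it was 3.97 ± 0.687, with overlapping groups. That ratio leaves out Bax, whose TPM alone was above the sum of the 4 death genes (11.9 to 17.7) in every library. It therefore describes these 7 listed genes and not the balance of the whole family. TPM spreads reads over all annotated exons, so a gene whose transcripts use part of a long model, such as the 7738 bp of Bcl2, is understated.

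None of the 8 genes was called different between the groups. The test was edgeR's quasi-likelihood fit, adjusted by Benjamini-Hochberg over all 13736 genes tested, of which 6.76% were called (4.14% higher and 2.63% lower in knockout-labelled libraries). Of the 8, 0 had an unadjusted p under 0.05, where 26.5% of all tested genes did, and DESeq2 and limma-voom also called 0. At a background of 6.76%, fewer than 1 call would be found among 8 genes, so the count of 0 does not set them apart. The median log2 fold change of the 8 was 0.11, beside 0.0074 over all genes, with 5 above 0 and 3 below. The intervals say more than the count: for 7 of 8 genes the 95% interval lay within a 2-fold change in either direction, and for 5 (Mcl1, Bcl2l1, Bad, Bcl2l11 and Casp9) within 1.5-fold. That of Bid lay only just within 2-fold, with an upper end of 1.995-fold.

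**Figure D2:**
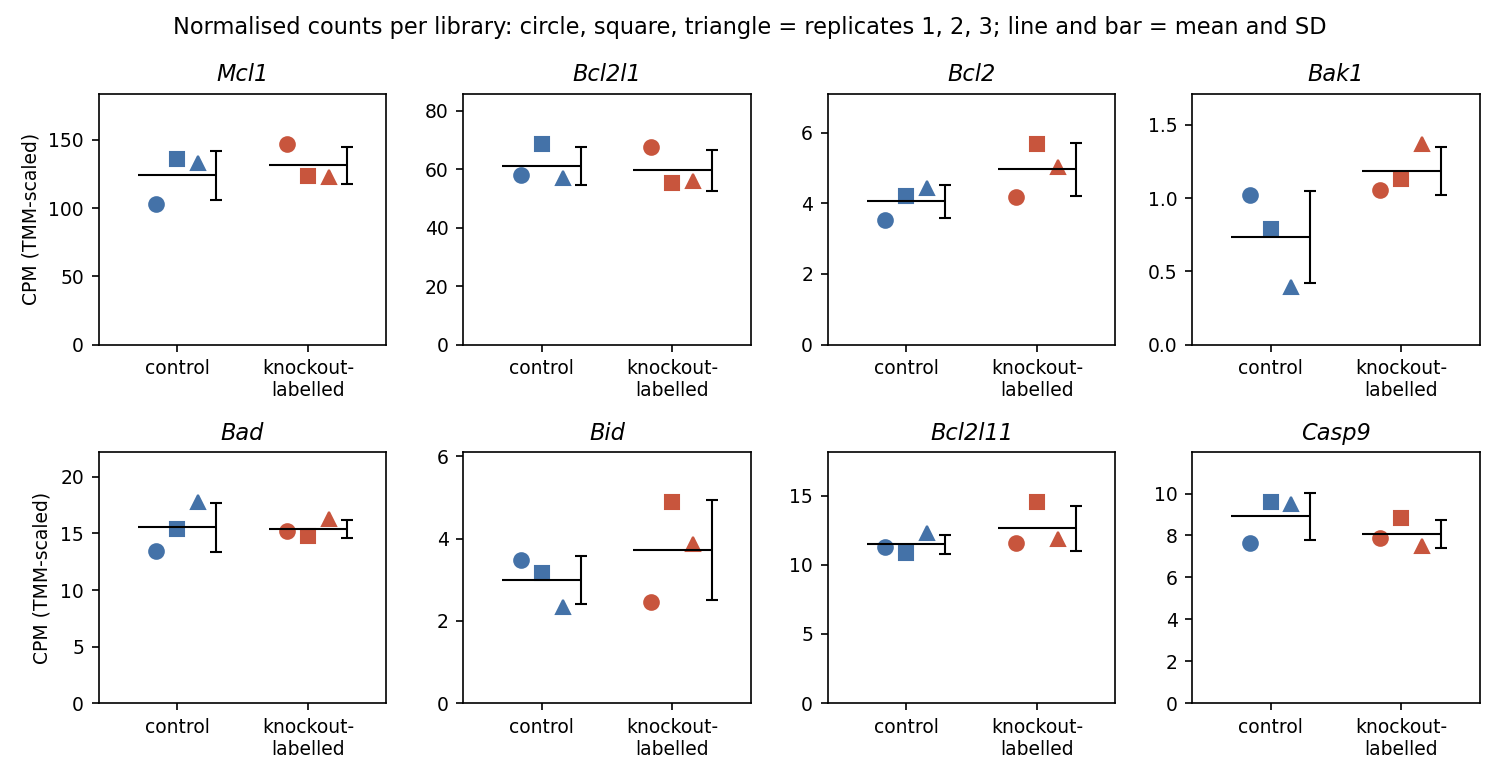
Normalised counts (CPM, axis from 0) of the 8 genes in each library, with the group mean (line) and SD (bar), n = 3 per group. The groups overlap for every gene except Bak1, where the controls reach 1.02 and the knockout-labelled libraries start at 1.06 CPM.

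Mcl1, whose short-lived product is a first line of defence against apoptosis, had 103, 136 and 133 CPM in controls 1 to 3 and 147, 123 and 123 CPM in knockout-labelled replicates 1 to 3. Control 1 was the lowest and knockout-labelled replicate 1 the highest, and the other 4 lay between them in both groups. Its log2 fold change was 0.081 ± 0.13 (SE, adjusted p = 0.732), with an interval from 0.868-fold to 1.29-fold. In mm10 coordinates it spans 95658721 to 95663178 of chromosome 3 (plus strand, 3 exons).

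Bcl2l1, the source of BCL-XL, had 57.9, 68.7 and 56.9 CPM in controls and 67.6, 55.3 and 55.9 CPM in knockout-labelled libraries. In each group 1 library was high (control 2 and knockout-labelled replicate 1) and the other 2 were lower and alike, so the groups overlapped. Between groups the log2 fold change was −0.037 ± 0.12 (SE, adjusted p = 0.877, interval 0.814-fold to 1.17-fold). It lies on chromosome 2 from 152758732 to 152831728 (minus strand, 7 annotated exons), and its counts sum the long survival form and any shorter splice forms.

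Bcl2 had 76, 101 and 112 counts in controls and 95, 121 and 99 in knockout-labelled libraries, or 3.52, 4.21 and 4.43 against 4.18, 5.69 and 5.03 CPM. The groups overlapped, since knockout-labelled replicate 1 lay below controls 2 and 3. Its log2 fold change of 0.29 ± 0.21 (SE) did not pass (adjusted p = 0.419), and its interval ran from 0.880-fold to 1.70-fold. Knockout-labelled replicate 2, the highest for Bcl2, was also the library with most lymphocyte transcripts: its 11 lymphocyte markers in the table summed to 84.9 CPM against 9.20 to 22.6 in the other 5, and the B cell gene Ms4a1 had 391 counts there, against 3 to 53 elsewhere. Without that library the log2 fold change of Bcl2 was 0.17 (edgeR adjusted p = 0.701). With each library's lymphocyte score (its mean log2 CPM over those markers) as a covariate it was 0.18, with a myeloid score −0.90 and with an acinar score 0.48, none called, and the part of other cells in this value was not tested further. Bcl2 lies on chromosome 1 from 106538178 to 106714290 (minus strand, 2 exons).

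Bak1, the pore former, was the one gene of the 8 whose groups did not overlap, as was the case for 32.1% of all tested genes. It had 22, 19 and 10 counts in controls and 24, 24 and 27 in knockout-labelled libraries, or 1.02, 0.792 and 0.396 CPM against 1.06, 1.13 and 1.37 CPM. Control 3 was the lowest library by far, while control 1 and knockout-labelled replicate 1 were nearly equal. Its log2 fold change was 0.69 ± 0.44 (SE, adjusted p = 0.349), the largest of the 8 in size and also the least certain, with an interval from 0.817-fold to 3.19-fold. By exact permutation (two-sided) p was 0.1, which is as small as 3 against 3 libraries can give. Without control 3 the log2 fold change was 0.37 (edgeR adjusted p = 0.689). Control 3 also had the fewest acinar transcripts, 1043 CPM over 16 genes against 10158 and 11548 in the other controls and 27553 to 31382 in knockout-labelled libraries. As a covariate, the acinar score turned the log2 fold change of Bak1 to −0.25 and the myeloid score took it to 3.38, neither called, and the part of other cells was not tested further. With 10 to 27 counts a library, a 2-fold rise lay inside the interval and could not be told from no change. It lies on chromosome 17 from 27019812 to 27028626 (minus strand, 6 exons).

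**Figure D3:**
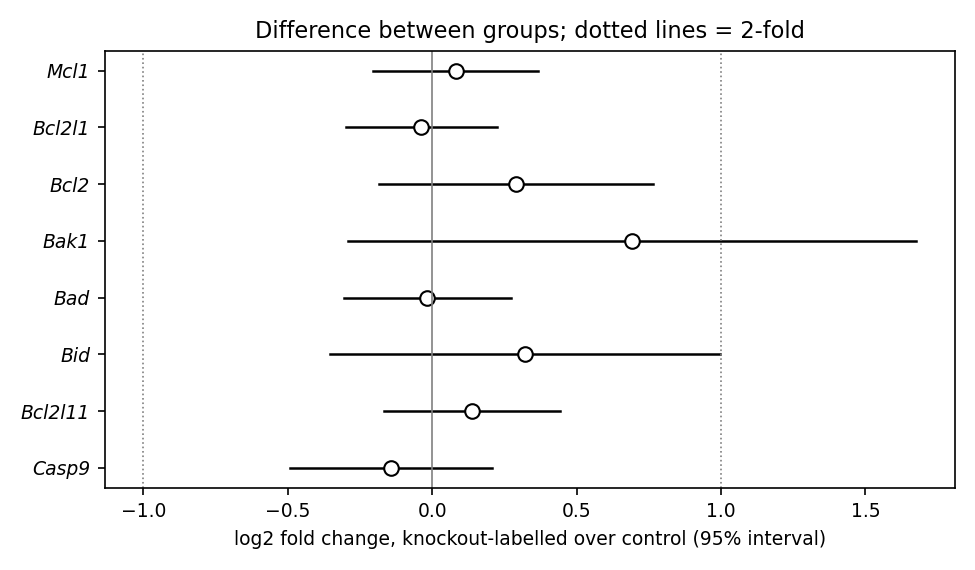
Log2 fold change, knockout-labelled over control, with its 95% interval from edgeR's quasi-likelihood fit, for each of the 8 genes (open circles, none called). The interval of Bak1 is the only one to pass a dotted 2-fold line, and the intervals of Mcl1, Bcl2l1, Bad, Bcl2l11 and Casp9 are narrow around 0.

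None of the BH3-only genes Bad, Bid and Bcl2l11 was called. Bad had 13.5, 15.4 and 17.8 CPM in controls and 15.2, 14.8 and 16.3 CPM in knockout-labelled libraries. The knockout-labelled values fell inside the range of the controls, and the log2 fold change was −0.016 ± 0.13 (SE, adjusted p = 0.956). Bad lies on chromosome 19 from 6941861 to 6951905 (plus strand, 5 exons), and 517 bp of its 1521 bp exon model are shared with exons of Gpr137 on the other strand. Gpr137 had 290 to 493 counts a library, and without a strand record reads of the shared part cannot be assigned to one gene.

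Bid, whose product is cut by caspase-8 and so links death receptors to mitochondria, had 3.47, 3.17 and 2.33 CPM in controls and 2.46, 4.89 and 3.86 CPM in knockout-labelled libraries. Knockout-labelled replicate 1 was among the lowest and replicate 2 the highest, a 2.09-fold range over all 6 libraries. The log2 fold change was 0.32 ± 0.30 (SE, adjusted p = 0.535, interval 0.783-fold to 1.995-fold). Without knockout-labelled replicate 2 the log2 fold change was 0.066 (edgeR adjusted p = 0.920). The log2 fold change was −0.19 with the lymphocyte score, −0.13 with the acinar score and 0.20 with the myeloid score as a covariate, none called. The part of other cells was not tested further. Bid lies on chromosome 6 from 120893119 to 120916820 (minus strand, 6 exons).

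Bcl2l11, which encodes BIM, a direct activator of BAK and BAX, had 11.3, 10.9 and 12.3 CPM in controls and 11.6, 14.5 and 11.8 CPM in knockout-labelled libraries. Only knockout-labelled replicate 2 lay outside the range of the controls. This gave a log2 fold change of 0.14 ± 0.14 (SE, adjusted p = 0.555) with an interval from 0.891-fold to 1.36-fold. It lies on chromosome 2 from 128126038 to 128162547 (plus strand, 6 exons).

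Casp9, the caspase that the apoptosome activates, had 7.64, 9.58 and 9.49 CPM in controls and 7.88, 8.83 and 7.52 CPM in knockout-labelled libraries. Control 1 lay with the knockout-labelled libraries, and the other 2 controls were highest. The log2 fold change was −0.14 ± 0.16 (SE, adjusted p = 0.602, interval 0.712-fold to 1.15-fold). Casp9 lies on chromosome 4 from 141793612 to 141815978 (plus strand, 9 exons). Its 3899 bp exon model shares 93 bp with Cela2a, an acinar elastase gene on the other strand that had 5047 to 117629 counts. Cela2a had 45594, 47236 and 5047 counts in controls and 115953, 117629 and 104459 in knockout-labelled libraries, and its part in the Casp9 counts was not tested.

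Of 66 other tested genes of the pathway, 4 were called, or 6.06%, beside 6.76% of all tested genes, so the pathway held no larger share of calls than the table. All 4 were higher in knockout-labelled libraries. Of 14 other BCL2 family genes tested, 1 rose, 0 fell and 13 were not called (median log2 fold change 0.30, beside 0.0074 over all genes). The gene that rose was Bbc3, which encodes the BH3-only protein PUMA, a target of p53. It had 7.64, 6.92 and 6.88 CPM in controls and 17.4, 9.49 and 11.6 CPM in knockout-labelled libraries, with knockout-labelled replicate 1 the highest and no overlap. Its log2 fold change was 0.85 ± 0.21 (SE, adjusted p = 0.0453). It stayed under the threshold without knockout-labelled replicate 2 and missed it without any one of the other 5 libraries (adjusted p 0.0624 to 0.146). Bax, named after its values were seen, had 34.9, 34.96 and 29.5 CPM in controls and 44.4, 41.5 and 38.2 CPM in knockout-labelled libraries. These groups did not overlap either, but its log2 fold change of 0.32 ± 0.11 (SE) was not called (adjusted p = 0.0959). Bnip3, also named after its values were seen, went the other way, with 97.8, 93.5 and 90.7 CPM in controls. It had 76.3, 80.97 and 67.2 CPM in knockout-labelled libraries, without overlap. Bnip3 was not called either (log2 fold change −0.33 ± 0.099 SE, edgeR adjusted p = 0.0712). Of the 14 tested, 11 had a log2 fold change above 0 and 3 below it. Groups did not overlap for 6 of the 14, beside 32.1% of all tested genes.

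**Figure D4:**
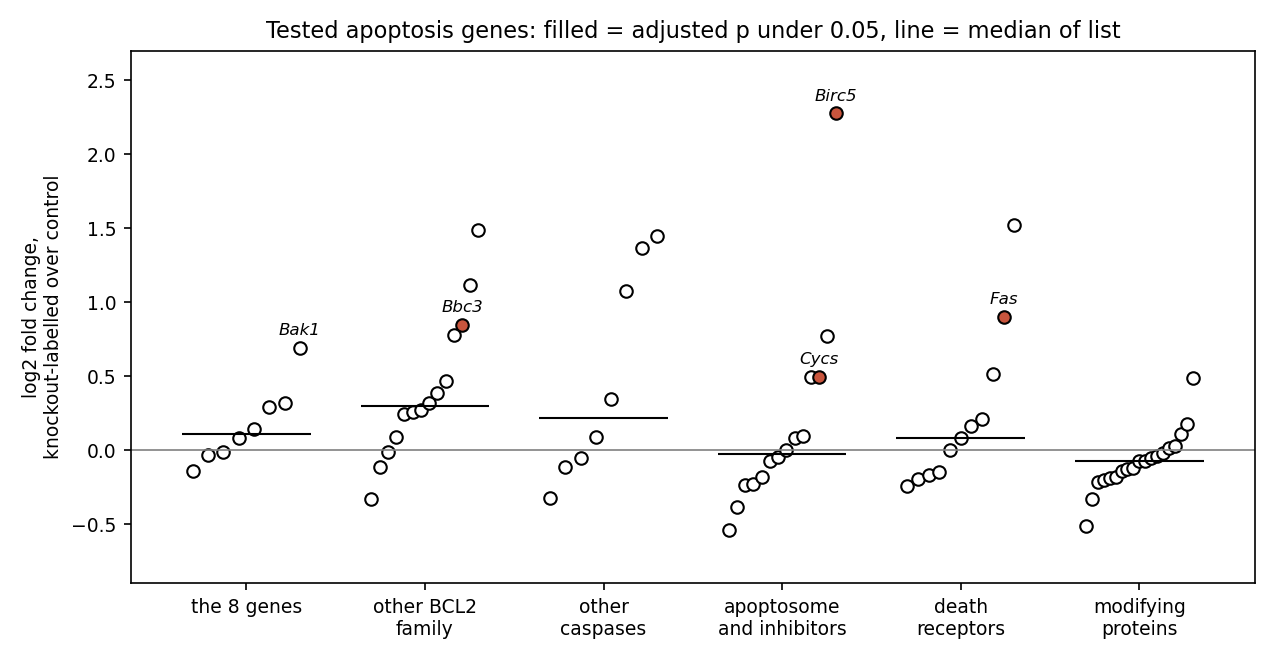
Log2 fold change, knockout-labelled over control, of every tested gene in the list of 8 and in the other 5 apoptosis lists, sorted within each list (circles), with the median of each list (line). The filled circles are the 4 called genes, Bbc3, Cycs, Birc5 and Fas, and none is among the 8.

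Downstream of the mitochondria, 2 of 14 apoptosome and inhibitor genes rose, 0 fell and 12 were not called (median −0.024). Cycs, which encodes cytochrome c of the respiratory chain and the apoptosome, rose from 24.95 ± 2.87 to 35.2 ± 1.73 CPM (SD, n = 3 each, log2 fold change 0.50 ± 0.11 SE, adjusted p = 0.0338). Birc5, which encodes survivin, a protein of dividing cells that also belongs to the inhibitors of apoptosis, had 37, 5 and 10 counts in controls and 88, 68 and 79 in knockout-labelled libraries (log2 fold change 2.28 ± 0.59 SE, adjusted p = 0.0495). The log2 fold change of Birc5 was 3.58 without control 1, the control with most Birc5 counts. Both genes were called without control 1 and missed the threshold without any one of the other 5 libraries (adjusted p 0.0560 to 0.122 for Cycs, 0.0723 to 0.141 for Birc5). Apaf1, the scaffold that recruits caspase-9, was named after its values were seen. It had 2.18, 3.50 and 2.37 CPM in controls and 4.88, 4.09 and 4.77 CPM in knockout-labelled libraries, without overlap. Apaf1 was not called (log2 fold change 0.77 ± 0.25 SE, edgeR adjusted p = 0.0918). Groups did not overlap for 3 of the 14 genes of this list, beside 32.1% of all tested genes.

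No other caspase was called among 8 tested by edgeR. Its unadjusted p was under 0.05 for 3 of the 8, beside 26.5% of all tested genes. DESeq2 called 1, Casp12. Casp6, an executioner, had 6.52 ± 0.868 CPM in controls and 6.03 ± 0.623 CPM in knockout-labelled libraries (SD, n = 3 each), with a log2 fold change of −0.11 ± 0.18 (SE, adjusted p = 0.734). Casp12, a caspase of the endoplasmic reticulum in mice, had 35, 39 and 24 counts in controls and 130, 77 and 28 in knockout-labelled libraries. Knockout-labelled replicate 3 lay within the range of the controls, and Casp12 was not called (1.37 ± 0.47 SE, adjusted p = 0.102, 0.0448 without that library). Casp4, an inflammatory caspase, had 6 to 15 counts in controls and 14 to 32 in knockout-labelled libraries (1.45 ± 0.51 SE, adjusted p = 0.109). Casp2, named after its values were seen, went the other way, with 19.5, 21.7 and 24.2 CPM in controls. It had 16.5, 18.6 and 17.1 CPM in knockout-labelled libraries, without overlap, and was not called (−0.32 ± 0.12 SE, edgeR adjusted p = 0.114). Of the 8 tested, 5 had a log2 fold change above 0 and 3 below it. Groups did not overlap for 2 of the 8, beside 32.1% of all tested genes. Casp14 had 0 counts in all 6 libraries, which allows up to 0.119 to 0.152 CPM a library (3 counts, counting error only).

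Of 11 death receptor genes, 1 rose, 0 fell and 10 were not called (median 0.082). Fas, the receptor that starts apoptosis from the cell surface, had 2.73, 2.46 and 2.10 CPM in controls and 4.22, 5.12 and 4.27 CPM in knockout-labelled libraries. The groups did not overlap, and the log2 fold change was 0.90 ± 0.23 (SE, adjusted p = 0.0493). Leaving out any one of the 6 libraries ended this call (adjusted p 0.0551 to 0.150), as did a replicate block (0.0768). Among 19 genes for proteins that modify, bind or degrade BCL2 family proteins, 0 were called by edgeR (median −0.077). Its unadjusted p was under 0.05 for 2 of the 19, beside 26.5% of all tested genes. DESeq2 called 2. These were Btrc, a ubiquitin ligase subunit (−0.51 ± 0.14 SE, adjusted p = 0.0551 in edgeR), and Dynll1, a dynein light chain that binds BIM (0.48 ± 0.16, adjusted p = 0.0901). The log2 fold change of Btrc passed the edgeR threshold without control 1 (adjusted p = 0.0307).

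Other cell types differed between the same libraries. Summed CPM of 16 acinar genes was 1043 to 11548 in controls and 27553 to 31382 in knockout-labelled libraries, and 2 of 13 tested were called higher, 0 lower. For 12 myeloid genes it was 161 to 172 against 286 to 363, with 7 called higher and 0 lower. The sums of 10 stellate and fibroblast genes (95.5 to 331 against 364 to 460 CPM, 4 called higher) were separated in the same direction. So were those of 10 endothelial genes (366 to 477 against 514 to 606, 4 higher) and 10 duct genes (953 to 1211 against 1307 to 1684, 1 higher of 9 tested). The sums of 6 delta, PP and epsilon cell genes were too (7383 to 14835 against 17957 to 20630, 2 higher). Single genes differed from these sums. A log2 fold change below 0 was found for 2 of the 10 endothelial genes and 1 of the 6 delta, PP and epsilon cell genes. Ghrl, a marker of epsilon cells, had 2, 36 and 35 counts in controls and 2, 17 and 6 in knockout-labelled libraries. Lymphocyte sums (1 called higher) and those of 8 alpha cell genes (1 called lower) overlapped. Defining genes at 0 included Cd3e in control 3, Ptf1a in controls 2 and 3, and Cftr in controls 1 and 3. Of the 12 β cell genes, 6 were called lower and 0 higher. With the acinar or the myeloid score of each library as a covariate, Bbc3, Cycs, Birc5 and Fas kept positive log2 fold changes and none was called. Because the sums of both marker sets separated the groups, these fits cannot tell the score from the group. The SE of Birc5 rose from 0.59 to 2.28 with the myeloid score. The part of other cell types in the values of the 8 genes was not tested beyond these fits.

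The 2 of the 8 genes with the smallest p were set beside all genes whose mean log2 CPM reached 2, as a description over 6 libraries. Among the 3 nearest to Bak1 in log2 CPM were the ribosomal protein gene Rpl7a (Pearson r = 0.996) and the ATP synthase gene Atp5j2 (0.994). Among the 3 nearest to Bcl2 were the MHC class I gene H2-K1 (0.990) and the transcription factor gene Mef2c (0.981). With 9908 genes to choose from and 6 points, high values are easily found: 121 genes had r above 0.95 with Bak1 and 13 of 9907 with Bcl2.

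**Figure D5:**
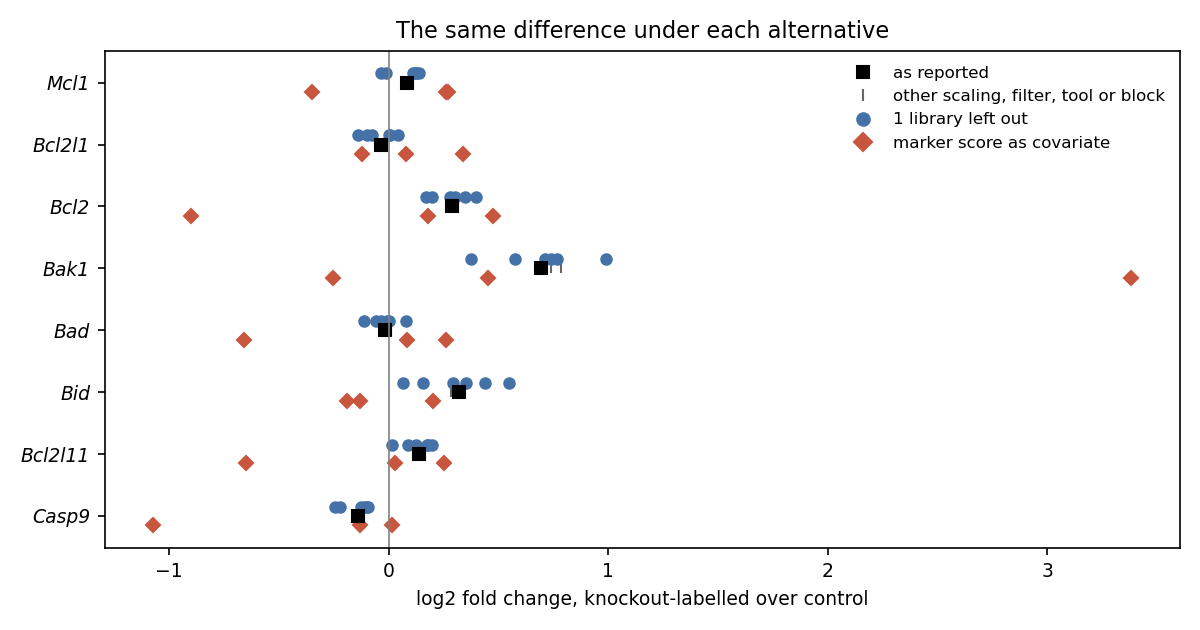
Log2 fold change of the 8 genes as reported (squares), under other scalings, filters, tools or a replicate block (ticks), with 1 library left out (circles) and with a cell type score as covariate (diamonds). No setting called any of the 8, and the widest moves, from −0.25 to 3.38 for Bak1, came with the scores.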

How the data were processed

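The authors deposited raw counts per gene for 6 libraries, with exon coordinates and, in another unit (bp), the summed exon length, per the file headers. Per the labels' protocols, 10 ng of total RNA was copied with poly-dT priming and SMART-Seq v4 chemistry, sheared by sonication and made into Ion Plus Fragment libraries, which keep no strand record. Alignment and counting tools in the submitters' processing notes are Subread 1.5.0, featureCounts and STAR 2.4.2a, with edgeR and build mm10; the annotation, strand and multi-mapping settings were not given in the sources used here.

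Columns were matched to samples by name. Counts were tested on the whole table in edgeR 4.0.16 (R 4.3.3; TMM factors, default expression filter by group, quasi-likelihood test, group as the only term), with Benjamini-Hochberg adjustment and a threshold of 0.05; limma 3.58.1 and DESeq2 1.42.0 gave alternatives. SE came from the fold change and F value, CPM used TMM-scaled library sizes, and TPM used the deposited lengths. Shared exon bases were computed without regard to strand (GenomicRanges 1.54.1). The 8 genes, 14 other lists and the tests were chosen with earlier results of these data known. Named were the 8 genes, Dhps, up to 4 called genes per other apoptosis list (otherwise the 2 with the smallest p) and, for the called genes of the 8 (otherwise the 2 with the smallest p), the 3 most correlated genes, passing over predicted genes; some genes that this names are not reported here. Replicate libraries were not repeat deposits of one another (chi-square per degree of freedom 11.2 or more for each pair). On simulated data with 200 changed genes among 13736, the test recovered 30% of genes changed 1.5-fold, 76% at 2-fold and 94% at 4-fold.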

Additional observations from a re-analysis of the deposited data

How the results depend on the processing

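None of the 8 genes was called under any of 17 alternatives, and with RPKM in place of TPM all 8 kept their place in the order of levels (6 to 8 with 1 library left out). Several small differences changed sign, and each stayed uncalled. With the myeloid score as a covariate, log2 fold changes were −0.90 for Bcl2, 0.34 for Bcl2l1, −0.35 for Mcl1, −0.65 for Bcl2l11, −0.47 for H2-K1 and −1.05 for Mef2c. With the acinar score they were 0.26 for Bad, −0.13 for Bid, −0.25 for Bak1, 0.017 for Casp9, −0.14 for Rpl7a and −0.10 for Atp5j2. With the lymphocyte score they were 0.080 for Bcl2l1, 0.083 for Bad and −0.19 for Bid, and with upper-quartile factors 0.011 for Bad. With 1 library left out, Bcl2l1 ranged from −0.14 to 0.041, Mcl1 from −0.037 to 0.14 and Bad from −0.11 to 0.077. The cause was not tested. These fits leave few degrees of freedom. The acinar and myeloid sums also separated the groups, so those scores and the group are hard to tell apart in a fit. The SE of Bcl2 was 0.21 as reported, 0.22 with a replicate block and 0.90 with the myeloid score.

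The number called among all genes was 929 and became 1658 with DESeq2, 0 with the acinar score (1223 at an unadjusted p under 0.05), 1 with the myeloid score and 144 with the lymphocyte score, and 64 to 968 with 1 library left out (control 2 left out gave 99, control 3 gave 216, knockout-labelled replicate 1 gave 64 and replicate 3 gave 344). For the other BCL2 family, 1 became 2 with DESeq2, 0 with limma-voom, 0 with the acinar score and 0 with the myeloid score, and 0 to 1 with 1 library left out. For other caspases, 0 became 1 with DESeq2 and 0 to 1 with 1 library left out. For the apoptosome list, 2 became 1 with RLE factors and 0 with the acinar, myeloid or lymphocyte score, and 0 to 2 with 1 library left out. For death receptors, 1 became 0 with no filter, a replicate block or any of the 3 scores, and 0 with any library left out. For modifying proteins, 0 became 1 with no filter and 2 with DESeq2, and 0 to 1 with 1 library left out. The acinar and myeloid sums separated the groups, so for calls lost with those scores, cell content and group label cannot be told apart.

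The replicate numbers in the titles gave no sign of pairing. Deviations of same-numbered libraries from their group means correlated at −0.037, −0.0069 and 0.055 over 13736 genes. Only 1 of 3 numbers had its highest correlation with its own number. With so few libraries these values cannot show whether same-numbered libraries were handled together. With a replicate block, 826 genes were called in all and 0 of the 8.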

Other observations

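Among the apoptosis genes, 3 were highest in the same knockout-labelled library, replicate 1, which was noticed after their values were seen. Pmaip1, which encodes the BH3-only protein NOXA that binds MCL1, had 69, 65 and 58 counts in controls and 224, 117 and 45 in knockout-labelled replicates 1 to 3. Bbc3 had 165, 166 and 174 counts in controls and 396, 202 and 229, and Casp12, given above, was also highest in replicate 1. Pmaip1 was not called (log2 fold change 1.11 ± 0.43 SE, edgeR adjusted p = 0.138). Within the knockout-labelled group, Mcl1 (147 CPM) and Bcl2l1 (67.6 CPM) were also highest in that replicate, whereas Bid was lowest there at 2.46 CPM.

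The BCL2 relatives of blood cells were low in these islets. Bcl2a1a, named after its values were seen, had 2, 9 and 8 counts in controls and 18, 16 and 14 in knockout-labelled libraries. Its groups did not overlap, as was the case for 32.1% of all tested genes, and it was not called (1.49 ± 0.54 SE, edgeR adjusted p = 0.117). Its near-identical copies overlapped between groups: Bcl2a1b had 34, 63 and 38 against 79, 97 and 34 counts (edgeR adjusted p = 0.239), and Bcl2a1d 23, 37 and 20 against 36, 31 and 20 (adjusted p = 0.720). Reads may be split or shared between the copies. Ripk3, a kinase of necroptosis, was also named after its values were seen. It had 4 to 15 counts in controls and 16 to 40 in knockout-labelled libraries and was not called (1.52 ± 0.55 SE, edgeR adjusted p = 0.115). Myeloid markers summed to 286 to 363 CPM in the same knockout-labelled libraries and 161 to 172 in controls, and their part in these values was not tested.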
